A study of Mus musculus with 28 samples.

Results

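Livers of mice given the high dose of tropifexor (LJN452), a synthetic agonist of the bile acid receptor FXR that is not itself a bile acid, were compared with livers of mice given its vehicle. Each group held 4 male C57BL/6 mice, 8 of the 28 mice of the study. Animals of both groups were about 6 weeks old at the start and ate the same diet for 26 weeks, in which fat supplied 40% of calories and fructose and cholesterol made up 22% and 2% of the weight, and which induces nonalcoholic steatohepatitis (NASH), so the vehicle group was a diseased group and not a healthy one. Dosing was oral, once a day for 4 weeks from week 26. The high dose is taken as 0.9 mg/kg: the labels list 3 doses without pairing them with groups, and rising order was assumed. The treatment field of the vehicle samples also names the drug, and the group was read from the sample titles. The comparison covered all 47719 genes of the authors' deposited table, of which 15818 were tested.

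FXR (gene symbol Nr1h4) is a nuclear receptor that binds bile acids and pairs with the retinoid X receptor. In hepatocytes it induces the repressor SHP (Nr0b2) and the pumps that move bile acids out of the cell, and through SHP and gut-derived fibroblast growth factor it lowers the enzymes that make bile acids from cholesterol. It is also known to act on genes of lipid, glucose and inflammatory pathways, and FXR agonists have been tested against fatty liver disease and scarring.

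Levels are FPKM (fragments mapped to a gene, scaled by transcript length and by the size of the library), 1 deposited value for each group of 4, so no value per animal and no library depth can be given. Fold changes are log2 ratios of these 2 group levels, high dose over vehicle. A gene is said to have risen or fallen only if the authors' deposited table, from Cuffdiff, gave it a q (p adjusted over all genes tested) under 0.05. A standard error (SE) in parentheses is the fold change divided by the deposited test statistic and is on the log2 scale. It is wider than the error that the deposited p assumes by a median factor of 2.03, but not for every gene: for some short RNAs it is far narrower. The hepatocyte markers matched the labelled tissue: albumin (Alb) stood at 32178 FPKM in the vehicle and 33919 FPKM in the high-dose group. In bulk liver, fewer cells of a type and less RNA per cell cannot be told apart.

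At the high dose 4015 of the 15818 tested genes (25.4%) were called, 1570 higher (9.93%) and 2445 lower (15.5%). The median fold change of all tested genes was -0.05. Of the called genes, 640 rose and 995 fell by a log2 change of at least 1, that is, by at least 1 doubling or halving. More genes fell than rose. The shares of 9.93% higher and 15.5% lower are the background for each count of list members risen or fallen at the high dose below.

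Ptgds, the lipocalin-type prostaglandin D2 synthase (chr2:25466709-25470046, minus strand, GRCm38), rose from 3.53 to 9252 FPKM, a log2 change of 11.36 (SE 0.49) and a 2620.3-fold rise. Among all tested genes with at least 1 FPKM in both groups, the next largest rise was 6.08. Slc51b, the beta subunit of the basolateral bile acid exporter, rose from 3.28 to 222 FPKM (6.08, SE 0.52). Lpcat4, a lysophospholipid acyltransferase, rose from 1.19 to 70.1 FPKM (5.88, SE 0.50), and the small membrane protein gene Tmem141 from 16.8 to 679 FPKM (5.34, SE 0.60). The long noncoding RNA Gm6135 rose by 5.20, BC029214 by 4.49 and Gm11832, which is antisense to Rad54b, by 4.40. The semaphorin Sema3b rose by 4.23, and Sqle, the squalene epoxidase of cholesterol synthesis, by 4.00. Gstm3, a glutathione transferase, rose from 117 to 1847 FPKM (3.99, SE 0.31). The lectin-like receptor gene Clec2h (3.82) and the processed pseudogene Gm16378 (3.77, SE 22.74) completed the 12 largest rises among genes with at least 1 FPKM in both groups. The wide SE of Gm16378 and its likeness to a parent gene make its value uncertain.

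**Figure D1:**
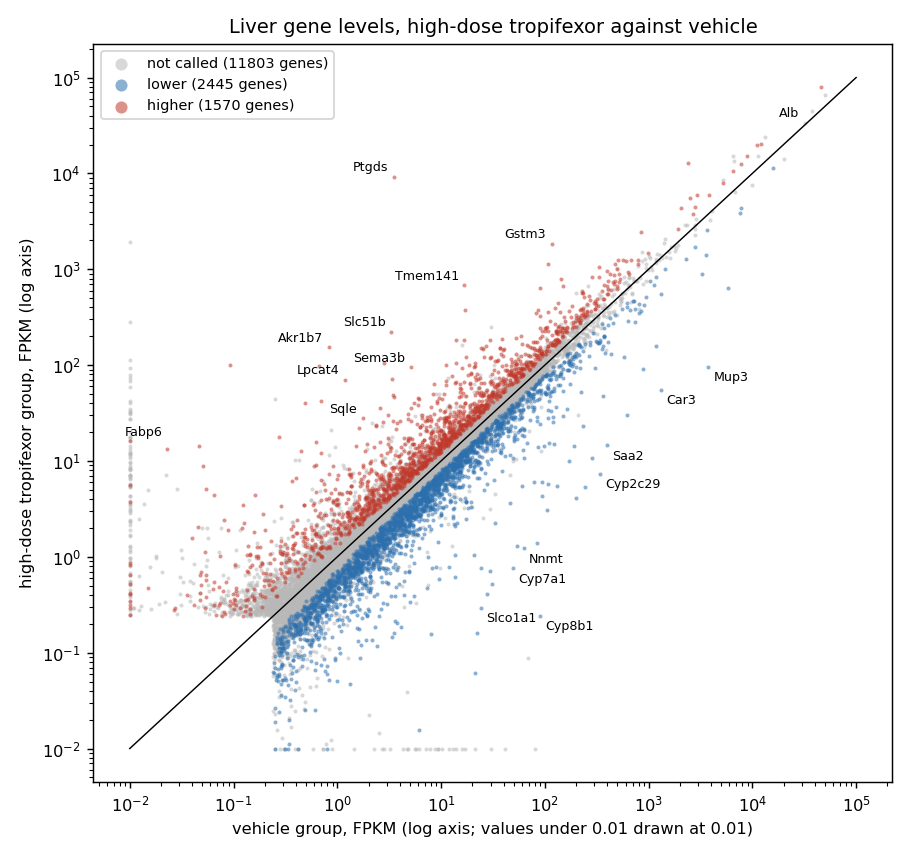
Group FPKM of all tested genes, vehicle on the x axis and high-dose tropifexor on the y axis, both logarithmic; each point is 1 gene, red risen, blue fallen, grey not called, and the line marks equal levels; values under 0.01 are drawn at 0.01. Ptgds stands farthest above the line among genes with at least 1 FPKM in both groups, while Cyp8b1, Cyp7a1, Nnmt and Mup3 lie far below it.

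Among the 12 largest falls by the same FPKM limit were enzymes and secreted proteins of the liver. Dio1, the deiodinase that activates thyroid hormone, fell from 84.1 to 1.41 FPKM (-5.90, SE 0.50). Nnmt, which methylates nicotinamide, fell from 62.6 to 1.22 FPKM (-5.68, SE 0.65), and the cytochrome P450 gene Cyp2c29 from 342 to 7.32 FPKM (-5.55, SE 0.34). The fibrinogen-like hepatokine Fgl1 fell from 243 to 5.37 FPKM (-5.50), the serum amyloid Saa2 from 395 to 14.6 FPKM (-4.75), the glucuronosyltransferase Ugt2b1 from 131 to 5.45 FPKM (-4.59) and the carbonic anhydrase Car3 from 1309 to 55.05 FPKM (-4.57). Of the 12, 4 were major urinary proteins, carriers of pheromones made by the liver: Mup3 fell from 3752 to 96.1 FPKM (-5.29), Mup14 from 53.5 to 1.29 FPKM (-5.38), Mup17 from 104 to 3.11 FPKM (-5.07) and Mup7 from 286 to 10.7 FPKM (-4.74). Serpina1e, an alpha-1-antitrypsin gene, fell from 198 to 4.07 FPKM (-5.61). Mup and Serpina1 genes are near-identical copies, so how reads were split among the copies affects the value of each.

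Genes below 1 FPKM in one group are outside that ranking. Among them 12 called genes went from under 1 FPKM to 10 or more and 11 went the other way, and those named here were chosen after their values were seen. Fabp6, the bile acid binding protein of the ileum, was listed at 0 in the vehicle group and at 16.0 FPKM at the high dose. The magnesium channel Trpm6 rose from 0.0229 to 13.2 FPKM, the anion exchanger Slc4a9 from 0.0463 to 14.4 FPKM and the membrane protease Tmprss4 from 0.694 to 42.6 FPKM. In the other direction Paqr9, a membrane receptor family member, fell from 27.5 to 0.405 FPKM, and Adgrv1, an adhesion receptor, from 24.4 to 0.773 FPKM.

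The bile acid circuit moved in its receptor, its repressor and its enzymes. Of the 10 feedback regulators tested, 3 rose and 5 fell, against 9.93% and 15.5% of all genes. The repressor Nr0b2 rose from 29.5 to 182 FPKM (2.63, SE 0.26). FXR itself, Nr1h4, fell from 60.8 to 18.7 FPKM (-1.70, SE 0.26), and its partner Rxra fell as well (-0.65). Mafg, a small Maf protein that FXR induces and that represses bile acid synthesis genes, rose (1.35). Fgf15, the gut hormone of the same circuit, stood at 0.0150 FPKM in the vehicle and 5.01 FPKM in the high-dose group, and the authors' deposited table did not call it (q = 0.478).

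Of the 14 genes of bile acid synthesis and conjugation, 6 fell and 4 rose, with a list median of 0.12. Cyp8b1, the sterol 12-alpha-hydroxylase that directs synthesis to cholic acid, fell from 90.3 to 0.242 FPKM, to a level 374-fold lower (-8.55, SE 0.51). Cyp7a1, the rate-limiting enzyme of the classical pathway, fell from 49.6 to 0.758 FPKM (-6.03, SE 2.14). Both were below 1 FPKM in the treated group. The sterol carrier Scp2 also fell (-1.26). Akr1d1, the 5-beta-reductase of the pathway, rose from 52.2 to 193 FPKM (1.88), Cyp2c70, which makes muricholic acids in mice, from 235 to 571 FPKM (1.28), and the oxysterol 7-alpha-hydroxylase Cyp39a1 by 1.13. Baat, which conjugates bile acids with taurine, was not called at 119 and 126 FPKM. Members other than the 2 hydroxylases with the largest falls thus moved both ways.

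Of the 9 tested exporters of bile acids, sterols and phospholipids 4 rose and 0 fell. Besides Slc51b, described above, these were the bile salt export pump Abcb11 (chr2:69238282-69342616, minus strand), which rose from 149.9 to 662 FPKM (2.14, SE 0.58), the phosphatidylcholine translocator Abcb4, which rose from 103 to 242 FPKM (1.23), and the phospholipid flippase Atp8b1, which rose from 6.51 to 14.0 FPKM (1.10). Slc51a, which encodes the partner subunit of Slc51b, was not tested, at 0 FPKM in the vehicle and 0.0304 FPKM in the treated group. Of 5 uptake transporters 2 fell and 3 were not called: Slc10a1, the sodium-taurocholate cotransporter that brings most bile acids into hepatocytes, fell from 234 to 23.0 FPKM (-3.35, SE 0.29), and the organic anion transporter Slco1a1 from 24.1 to 0.296 FPKM (-6.35, SE 0.42). The tested exporters rose or were not called, and the uptake transporters fell or were not called.

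**Figure D2:**
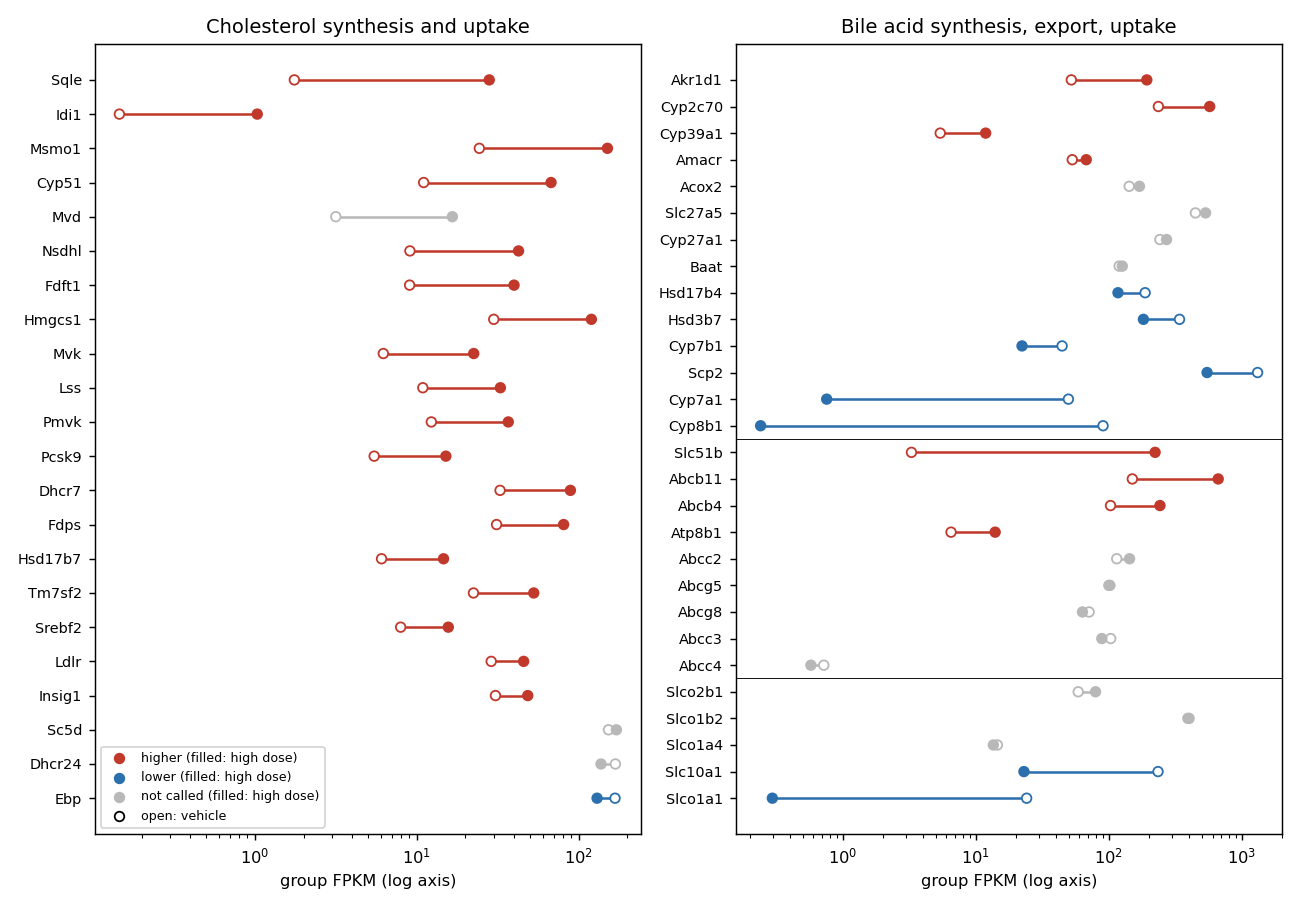
Group FPKM on a logarithmic x axis for genes of cholesterol synthesis and uptake (22 of the 23 tested, left) and of bile acid synthesis, export and uptake (right, separated by lines); open circles are the vehicle group, filled circles the high-dose group, red risen, blue fallen, grey not called. Most cholesterol genes shift to the right, while Cyp8b1, Cyp7a1, Slco1a1 and Slc10a1 shift to the left.

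FXR is known to bind an inverted repeat of a short receptor recognition sequence with 1 base between the copies, AGGTCANTGACCT, which reads the same on both strands. Promoter windows of RefSeq (GRCm38.p6, 250 bases before to 50 after a gene's start) were found by symbol for 10613 tested genes. A match with at most 1 mismatch stood in 10 of them (0.0942%), in 3 of 1124 risen genes (0.267%) and in 1 of 1784 fallen genes (0.0561%). At most 2 mismatches were found in 1.23% of all tested, 1.69% of risen and 0.953% of fallen genes, and in 7 of the 149 genes that rose by a log2 change of 2 or more (4.70%). These shares are descriptions: a match in a window is neither a bound site nor a cause, and sites elsewhere were not looked for. Among the 29 regulators, exporters and other known FXR-induced genes with a window, Abcb11 was the only one within 2 mismatches. Fabp6, which rose as described above and is not in these lists, had a match with 2 mismatches. The matches of the 3 risen genes and the fallen one are shown because they are the called genes among the 10 with at most 1 mismatch. The rest of the 10 were as close and were not called: Nbr1, the uptake transporter Slco1b2, Saa4, Tbc1d14, Mtus2 and Rarg. The first line is the whole stretch of 250 bases before the start of Abcb11, each line runs 5′ to 3′ on the gene's strand, and capitals mark the match.
Abcb11 (chr2:69342617-69342866, minus strand): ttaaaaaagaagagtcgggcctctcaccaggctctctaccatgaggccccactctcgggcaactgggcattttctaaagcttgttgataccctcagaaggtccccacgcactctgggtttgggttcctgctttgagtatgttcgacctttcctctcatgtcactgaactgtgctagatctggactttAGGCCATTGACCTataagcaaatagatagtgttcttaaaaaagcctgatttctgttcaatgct
Steap3 (chr1:120270352-120270388, minus strand): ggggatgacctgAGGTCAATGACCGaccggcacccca
Rdh9 (chr10:127776314-127776350, plus strand): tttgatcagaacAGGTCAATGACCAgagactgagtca
Efemp2 (chr19:5474465-5474501, plus strand): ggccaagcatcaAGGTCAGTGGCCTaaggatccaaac
Counted from 1 at the first base of the repeat, the mismatch was T4C in Abcb11, T13G in Steap3, T13A in Rdh9 and A10G in Efemp2. The match of Abcb11 began 63 bases before the gene's start. Steap3, an iron reductase, rose by 2.24, the retinol dehydrogenase Rdh9 by 1.73, and Efemp2, a matrix protein, fell. These were named after their sequences were searched.

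Of 14 other genes known as FXR-induced, 5 rose, 2 fell and 7 were not called. Akr1b7, an aldo-keto reductase, rose from 0.825 to 154 FPKM (7.54, SE 0.44), the growth inhibitor Osgin1 from 107 to 1142 FPKM (3.41) and the metabolic hormone Fgf21 from 5.13 to 35.5 FPKM (2.79). Vldlr, a lipoprotein receptor listed as FXR-induced, fell from 1.33 to 0.0474 FPKM (-4.81, SE 2.71), against the list's direction. The 3 fibrinogen chains of the list were not called.

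Cholesterol synthesis was the list with the highest share of rises among those with at least 10 genes tested: of 23 genes 19 rose and 1 fell, with a median of 1.58 against -0.05 over all genes. Sqle, the enzyme that oxidises squalene, rose from 1.75 to 28.1 FPKM (4.00, SE 0.33). Further rises were those of Idi1 (2.83), an isomerase at the start of the isoprenoid branch, and of the sterol demethylation enzymes Msmo1 (24.4 to 151 FPKM, 2.63) and Cyp51 (11.04 to 67.6 FPKM, 2.61). Ebp, a sterol isomerase late in the pathway, was the member that fell, from 168 to 130.1 FPKM (-0.37). Mvd, mevalonate decarboxylase, moved from 3.16 to 16.6 FPKM without a call, and the authors' deposited table gave it a q of 0.517. The risen genes included early steps such as Hmgcs1 and late ones such as Dhcr7.

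A mixed list of cholesterol efflux genes and targets of the oxysterol receptor LXR did not move one way: of 10 tested 3 rose and 2 fell. The falls were those of the cholesterol efflux pump Abca1, from 22.1 to 15.5 FPKM (-0.51), and of Mylip (-0.58). The HDL receptor Scarb1 rose from 111 to 285 FPKM (1.36), the cholesterol esterifying enzyme Soat2 from 21.3 to 48.6 FPKM (1.19), and Lcat by 0.57. The split is one of the whole list and not of LXR targets alone.

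Of 19 tested genes of fatty acid and triglyceride synthesis, 9 fell and 3 rose, with a median of -0.46. Scd1, the desaturase that makes monounsaturated fatty acids, fell from 5836 to 639 FPKM (-3.19, SE 0.58), and Mogat1, an acyltransferase of triglyceride synthesis, from 9.57 to 0.584 FPKM (-4.03). The phosphatidate phosphatase Lpin1 (-1.57) and malic enzyme Me1 (-1.46) fell as well. Fatty acid synthase, Fasn, was not called at 247 and 409.9 FPKM, and Thrsp, a lipogenic nuclear protein, rose from 228 to 569 FPKM (1.32). Among other acyltransferases of triglyceride synthesis Dgat2 fell (-0.72), Dgat1 rose (0.46), and Gpam and Agpat2 were not called, so the acyltransferases had no common direction.

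Of 14 tested lipid droplet genes 5 fell and 2 rose, beside 15.5% and 9.93% of all genes. Cidea and Cidec, proteins that enlarge droplets and are raised in fatty liver, fell from 21.4 to 0.0621 FPKM (-8.43, SE 1.69) and from 79.4 to 6.01 FPKM (-3.72, SE 0.39). G0s2, an inhibitor of the lipase encoded by Pnpla2, fell (-1.79), as did the droplet-forming Fitm2 (-1.55). Pnpla2 rose from 54.9 to 92.7 FPKM (0.76) and the perilipin Plin5 from 20.3 to 31.2 FPKM (0.62). At a deposited q under 0.01 only 2 of these falls were called.

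Targets of PPAR alpha, the receptor that drives fatty acid oxidation, fell in 11 of 18 cases and rose in 1, with a median of -0.82. Ppara itself fell from 54.9 to 19.9 FPKM (-1.46). The omega-hydroxylases Cyp4a10 and Cyp4a14 fell from 94.4 to 6.01 FPKM (-3.97) and from 46.5 to 3.62 FPKM (-3.68), and the thioesterase Acot1 from 4.90 to 0.718 FPKM (-2.77). Pdk4, the kinase that shuts off pyruvate oxidation and is itself a PPAR alpha target, rose from 3.28 to 13.7 FPKM (2.06).

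Among 11 genes of glucose handling 3 rose and 4 fell. G6pc, the glucose-6-phosphatase that ends glucose production, fell from 71.3 to 26.7 FPKM (-1.42), and pyruvate kinase Pklr fell (-0.76), while the glucose transporter Slc2a2 rose (0.90). In the urea cycle and periportal amino acid list 5 of 14 rose and 0 fell, among them histidine ammonia-lyase Hal (126 to 395 FPKM, 1.64), Ass1 (332 to 833 FPKM, 1.33) and Cps1 (0.70). Of 12 pericentral genes, expressed around the central vein, 8 fell and 0 rose, with a median of -1.14. Glutamine synthetase Glul fell from 382 to 132 FPKM (-1.53), ornithine aminotransferase Oat from 363 to 48.2 FPKM (-2.91), the glutamate transporter Slc1a2 from 29.4 to 0.710 FPKM (-5.37) and Cyp2e1 from 3294 to 883 FPKM (-1.90). The periportal members that moved rose and the pericentral members that moved fell; the zones themselves were not sampled.

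Genes that differ between male and female liver moved without one direction. Of 10 male-biased genes 6 fell and 2 rose: Slco1a1 and Serpina1e had the largest falls, described above, Cyp2d9 fell (-1.21), and Cyp4a12b rose from 26.8 to 158 FPKM (2.55). Of 5 female-biased genes tested, 1 rose and 2 fell: the P450 gene Cyp2b9 fell from 6.11 to 0.0156 FPKM (-8.61) and Hao2, a hydroxyacid oxidase, from 0.287 to 0.0358 FPKM (-3.002); 5 members were not tested. In the growth hormone list 2 of 9 rose and 3 fell; Igf1 was not called at 229 and 221 FPKM, the growth hormone receptor Ghr fell (-0.85), Igfbp1 fell from 17.2 to 3.71 FPKM (-2.21) and Igfbp2 rose from 229 to 591 FPKM (1.37).

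Xenobiotic metabolism split as well, with 8 of 16 tested genes risen and 5 fallen. Nr1i2, the receptor PXR, rose from 22.4 to 80.8 FPKM (1.85) and Fmo2 from 4.85 to 27.3 FPKM (2.49), whereas Cyp3a11, a standard PXR target, fell slightly (-0.50) and Cyp2c37 fell from 62.3 to 10.7 FPKM (-2.54). Cyp2b10, a target of the related receptor CAR, fell from 0.393 to 0.0405 FPKM (-3.28). 

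Antioxidant genes of the NRF2 pathway, which answers oxidative stress, rose in 11 of 19 tested cases and fell in 3, with a median of 1.08. The glutathione transferases led them. Gstm1 rose from 2381 to 12794 FPKM (2.43, SE 0.41), Gstm3 had the fold given above, Gsta2 rose from 13.9 to 184 FPKM (3.73) and Gsta1 from 6.04 to 45.5 FPKM (2.91). Transferase genes within the mu and alpha families are close copies, so their separate values are uncertain. Nqo1, the quinone reductase used as an NRF2 marker, rose from 7.98 to 26.3 FPKM (1.72). Gpx2, a glutathione peroxidase, moved from 0.250 to 44.2 FPKM, but the authors' deposited table did not call it (q = 0.471). The 3 members that fell were the metallothioneins Mt1 (190.3 to 14.3 FPKM, -3.74) and Mt2 (106 to 5.75 FPKM, -4.21), which bind zinc, and the heme oxygenase Hmox1 (22.5 to 10.0 FPKM, -1.17). Metallothioneins and heme oxygenase are also induced by other stress signals.

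In the stress list of the endoplasmic reticulum, 6 of 16 rose and 5 fell. The risers with the largest changes were Trib3 (4.75 to 16.7 FPKM, 1.82), Atf3 (4.79 to 16.0 FPKM, 1.74) and Asns (1.74), all known targets of the factor ATF4. Atf4 itself (0.80), Xbp1 (0.46) and Ppp1r15a (0.39) rose as well. Other stress genes of the list did not: Sesn2 fell (-0.51), and Ddit3 (-0.15) and Chac1 (0.19) were not called. A common ATF4 response was not tested. The chaperone Hspa5 fell from 371 to 242 FPKM (-0.62) and its cofactor Sdf2l1 from 26.8 to 12.6 FPKM (-1.09). Of 12 respiratory chain subunits 5 rose and 0 fell, with a median of 0.48; Sdhb had the largest rise (139 to 227 FPKM, 0.71).

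Acute phase genes, which hepatocytes raise in inflammation, fell in 14 of 18 cases and rose in 1 (median -0.77). Saa1 fell from 621 to 29.96 FPKM (-4.37), Orm2 from 123 to 15.2 FPKM (-3.02) and the siderophore-binding lipocalin Lcn2 from 225 to 52.9 FPKM (-2.09). The single riser was Lbp, the lipopolysaccharide binding protein (54.3 to 103 FPKM, 0.92). Of 20 complement and coagulation genes 6 rose and 2 fell, beside 9.93% and 15.5% of all genes. Complement C3 rose from 2531 to 5581 FPKM (1.14), and antithrombin Serpinc1 from 2071 to 4346 FPKM (1.07).

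**Figure D3:**
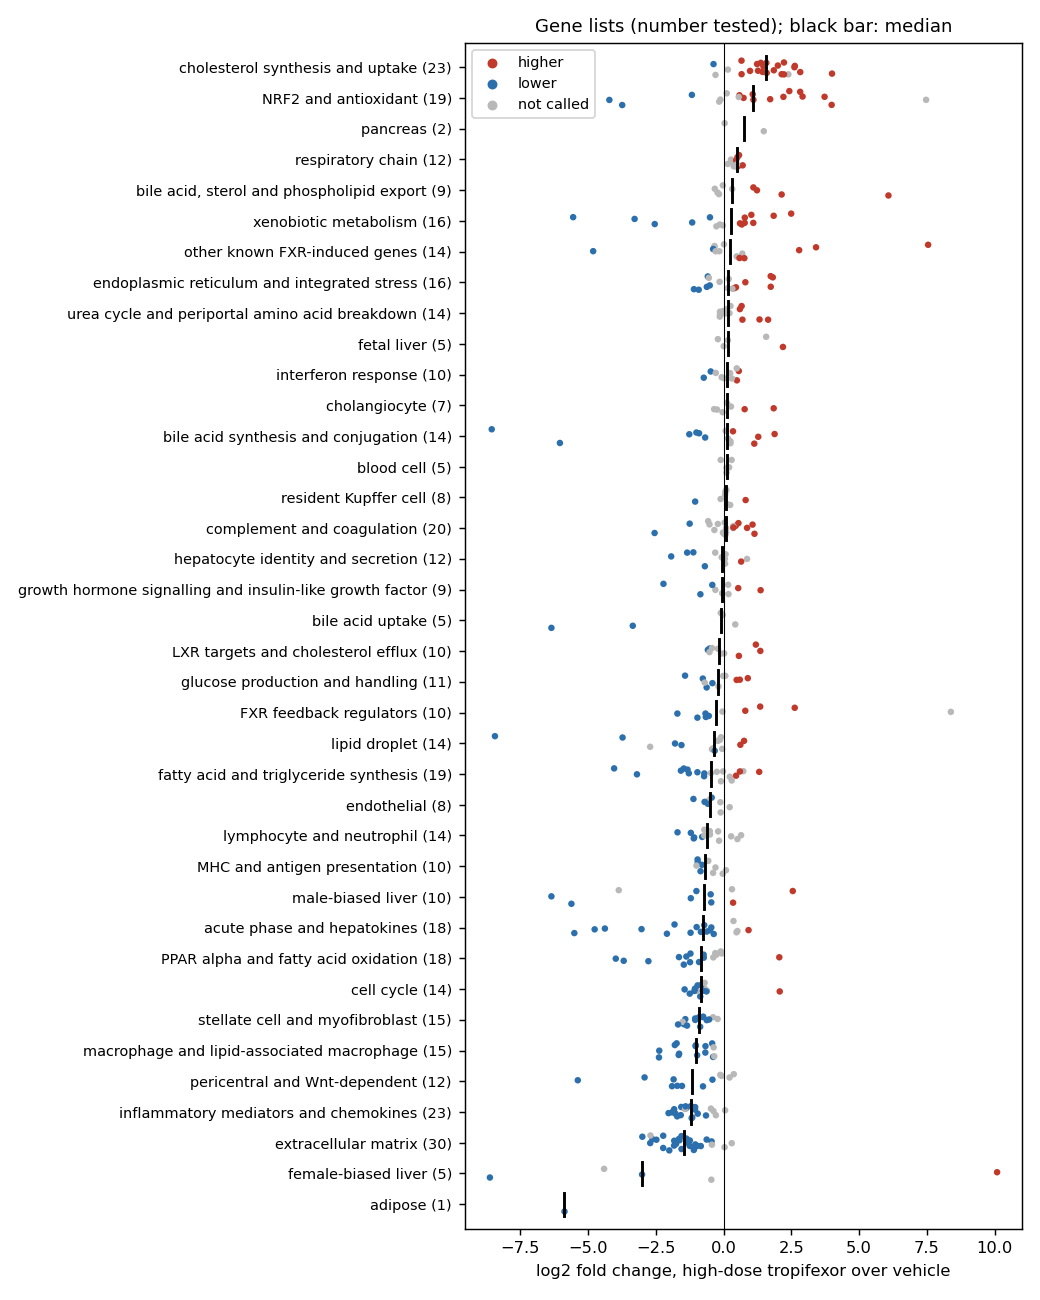
Log2 fold change, high dose over vehicle, of every tested member with a finite value in each of the 38 gene lists, ordered by list median (black bar); red points rose, blue points fell, grey points were not called, and the number tested stands beside each name. Cholesterol synthesis and NRF2 genes lie at the top, and extracellular matrix and inflammatory genes near the bottom.

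Inflammatory mediators fell or were not called. Of 23 tested, 18 fell, with a median of -1.21. Ccl2, the chemokine that draws monocytes into the liver, fell from 8.75 to 2.93 FPKM (-1.58, SE 0.43), its receptor Ccr2 from 4.11 to 1.10 FPKM (-1.91), Cxcl1, which draws neutrophils, from 13.3 to 3.27 FPKM (-2.03), and Ccl7 from 1.79 to 0.507 FPKM (-1.82). Of 10 interferon response genes 2 rose and 2 fell, beside 9.93% and 15.5% of all genes; Ifit1 rose from 8.32 to 12.3 FPKM (0.56), Oasl2 fell from 13.2 to 7.99 FPKM (-0.73) and Isg15 stayed uncalled at 20.3 and 20.6 FPKM. Among antigen presentation genes the 4 that fell, of 10 tested, were the class II genes H2-Eb1 (99.9 to 51.5 FPKM, -0.96), H2-Aa (-0.95), H2-Ab1 (-0.85) and their chaperone Cd74 (-0.80).

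Most genes of the macrophage list fell, while markers of resident Kupffer cells were called at about the share of all genes. In the macrophage list, which includes genes of the lipid-associated macrophages of fatty liver, 13 of 15 fell and 0 rose, with a median of -1.02 and a summed level that went from 779.7 to 459.6 FPKM. Gpnmb fell from 19.4 to 3.72 FPKM (-2.38, SE 0.48), the elastase Mmp12 from 25.7 to 4.98 FPKM (-2.37), Mpeg1 from 63.6 to 18.3 FPKM (-1.80) and the lipid receptor Trem2 from 12.2 to 3.69 FPKM (-1.73). Of 8 Kupffer markers 1 rose and 1 fell (25%, beside 25.4% of all tested genes called), and their summed level was 253 FPKM in the vehicle and 239 FPKM at the high dose. The Kupffer lectin Clec4f stood at 48.2 and 51.8 FPKM without a call, Cd5l, a scavenger protein, fell from 103 to 49.8 FPKM (-1.05), and the iron exporter Slc40a1, which hepatocytes also express, rose (0.82). The difference between these 2 marker lists was not tested, nor was the part of macrophage number in the fall of the mediators. Lymphocyte and neutrophil markers were low in both groups; 5 of 14 fell and 0 rose, a count that dropped to 2 at a deposited q under 0.01 and to 1 with a filter of 1 FPKM. Examples are Cd8a (0.492 to 0.213 FPKM, -1.20) and Nkg7 (3.18 to 1.499 FPKM, -1.08), and the neutrophil gene Ly6g was listed at 0 in both.

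Scar matrix genes fell together. Of 30 extracellular matrix genes tested 26 fell and 0 rose, with a median of -1.46; 15.5% of all genes fell. Col1a1, the main chain of scar collagen, fell from 13.6 to 2.09 FPKM (-2.70, SE 0.34), and Col3a1, its type III companion, from 85.3 to 13.9 FPKM (-2.62, SE 0.52). The collagenase Mmp13 fell from 1.95 to 0.244 FPKM (-2.99) and the crosslinking enzyme Lox from 0.667 to 0.120 FPKM (-2.47). Timp1, the protease inhibitor, went from 7.30 to 1.13 FPKM without a call: the authors' deposited table gave q = 0.319. Fibronectin, Fn1, which hepatocytes secrete, was not called at 344 and 424 FPKM.

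The cells that lay down this matrix are the hepatic stellate cells. Of 15 of their genes 12 fell and 0 rose (median -0.91). The contractile actin Acta2, a mark of activated stellate cells, fell from 4.55 to 1.66 FPKM (-1.46), the matricellular factor Ctgf from 4.68 to 1.46 FPKM (-1.68), Tagln from 9.86 to 3.71 FPKM (-1.41) and Ngfr from 2.198 to 0.865 FPKM (-1.35). Reln, which marks stellate cells whether active or quiescent, fell as well (33.4 to 16.2 FPKM, -1.05), as did 4 of 8 endothelial markers (2 at a deposited q under 0.01; Vwf, -1.11, and Stab2, -0.70, among them). The summed level of the stellate list was 154 FPKM in the vehicle and 80.4 FPKM at the high dose, that of the endothelial list 146 and 111 FPKM; the part of cell number in the matrix result was not tested.

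In the cell cycle list 9 of 14 genes fell, a count that includes the arrest gene Cdkn1a (7.43 to 2.75 FPKM, -1.44). Of the genes of dividing cells, Cdk1 fell from 2.75 to 1.33 FPKM (-1.05) and Ccna2 from 1.48 to 0.624 FPKM (-1.25), while Top2a was not called (2.48 and 1.53 FPKM). Ccnd1, the cyclin that starts the cycle and is expressed by hepatocytes, rose instead, from 19.5 to 82.2 FPKM (2.07).

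Markers of other tissues and cell types give the background of these lists. Of 12 hepatocyte genes 1 rose and 4 fell, beside 9.93% and 15.5% of all genes. The factors Onecut1 (15.1 to 3.97 FPKM, -1.93) and Cebpa (117 to 54.0 FPKM, -1.11) and the thyroid hormone carrier Ttr (3537 to 1396 FPKM, -1.34) fell, and Prox1 rose (0.65). Of 7 bile duct markers 2 rose, Prom1 (1.31 to 4.74 FPKM, 1.85) and Muc1 (0.78), and Krt19 was not called at 2.51 and 3.03 FPKM. The fetal gene H19 rose from 1.62 to 7.41 FPKM (2.19), and fetal Afp was not called (2.07 and 2.32 FPKM). Of 5 red cell genes tested none was called, with Hba-a1 at 49.6 and 57.2 FPKM. Pancreatic Cpa1, Pnlip and Cel were listed at 0 in both groups. Of the 5 adipose markers 1 was tested, Cfd, which fell from 30.9 to 0.519 FPKM (-5.90), and Adipoq, the defining marker of fat cells, stood at 0.0305 and 0.113 FPKM.

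A 300 kb stretch of chromosome 2 around Ptgds held the densest run of rises. It was found by scanning all 300 kb windows that begin at a called gene with a log2 change of at least 2, so it was chosen after its values were seen. Of its 21 tested genes, 16 rose and none fell, 12 of them by a log2 change of at least 2, with Lcn5 included, which was listed at 0 in the vehicle group; the next richest window elsewhere, on chromosome 10 at the glutathione transferase gene Gstt3, held 3. The median change of the tested genes of the stretch was 2.16. The 300 kb (chr2:25455141-25755140, GRCm38) hold several lipocalin genes, small carriers of lipids and odorants. BC029214 (chr2:25455141-25461094, minus strand) rose from 16.9 to 380.0 FPKM and Clic3, a chloride channel protein that lies within it on the opposite strand, from 0.669 to 98.1 FPKM. The starts of the 2 genes lie 8.95 kb and 13.2 kb from that of Ptgds. Farther along, Lcn12 rose from 0.186 to 0.862 FPKM, the complement component C8g from 301 to 447 FPKM, the small GTPase Rabl6 from 16.4 to 36.9 FPKM, the macrophage lectin ficolin Fcna from 14.8 to 47.0 FPKM, Lcn8 from 0.287 to 1.45 FPKM, the odorant-binding Obp2a from 0.694 to 12.2 FPKM and Bmyc, a brain-expressed Myc relative 237 kb from Ptgds, from 10.3 to 44.7 FPKM. Among them 5 genes, Fbxw5 (24.4 and 28.1 FPKM), Gm13433, Edf1 (176 and 157 FPKM), Mamdc4 and Phpt1, were not called, so the rises were not continuous. Fcnaos and A230005M16Rik are antisense to risen neighbours and share exons with them; 5 of the 16 risen genes overlap an exon of another gene, and the sources do not say if reads were counted by strand. The 5 tested genes on either side of the stretch showed 1 fall and 1 rise before it and 1 rise after it. For comparison, the densest run of falls was a 300 kb window on chromosome 4 with 4 of 6 tested genes down by at least 2, beginning at the pseudogene Mup-ps12.

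**Figure D4:**
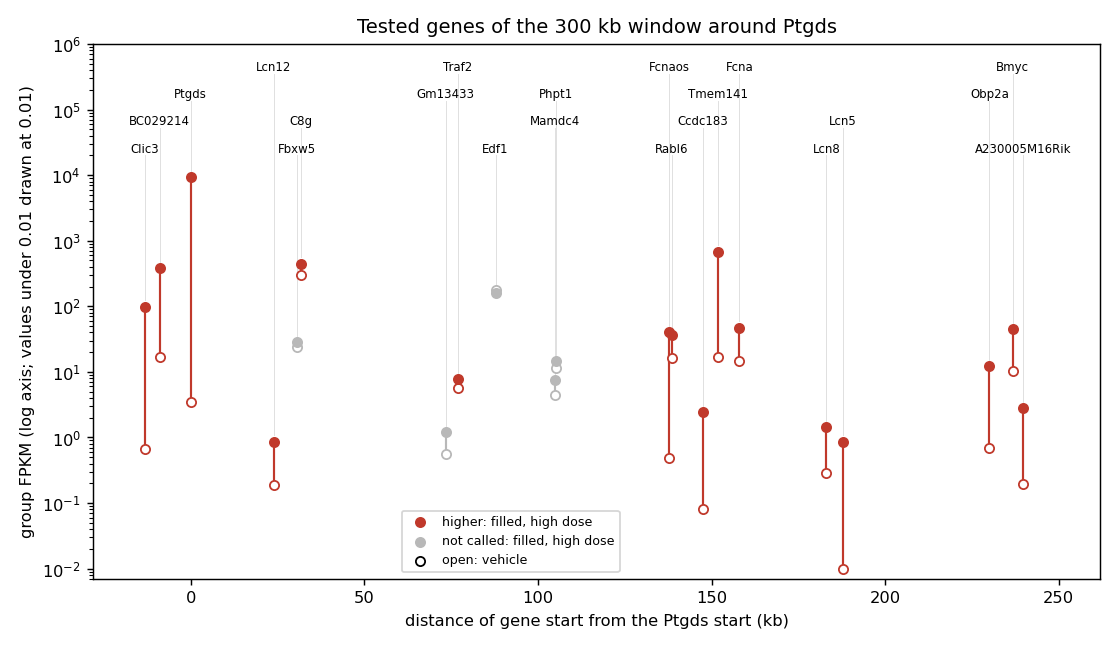
Group FPKM (logarithmic y axis) of the 21 tested genes of the 300 kb stretch against the distance of each gene's start from that of Ptgds in kb; open circles are the vehicle group, filled circles the high dose, red risen, grey not called. Rises stand among and beyond the 5 uncalled genes, and Ptgds reaches the highest level.

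Against mice on a low-fat diet, the authors' deposited table of that comparison placed the treated livers away from the lean state for some genes and near it for others. It shares the high-dose animals, and its values are given side by side only. Ptgds stood at 5.93 FPKM in lean and 8512 FPKM in treated liver, Cyp8b1 at 189 and 0.222 FPKM, and Slc10a1 at 788 and 21.1 FPKM, all with a log2 change from lean beyond 5 in size. Sqle stood at 25.2 and 25.8 FPKM (0.04) and Col1a1 at 1.41 and 1.93 FPKM (0.45), both within 1 on the log2 scale.

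The other groups of the study show which changes differed in size from those at the lower doses and with obeticholic acid (OCA), which is made from a bile acid and is likewise an FXR agonist, given at 25 mg/kg. The mid and low doses, 0.3 and 0.1 mg/kg in the same assumed order, share the vehicle animals of the high dose, and OCA had its own vehicle. Called genes made up 27.5% of tested genes at the mid dose, 11.2% at the low dose and 4.04% with OCA. The difference of fold changes, high dose minus the other, was tested with the variances of both added and adjusted by the Benjamini-Hochberg method. For the mid and low doses, where the vehicle is shared, adding the variances is conservative and widens the intervals. The counts against these doses and against OCA are thus not equally sensitive. It was called for 49 of 15374 genes against the mid dose (0.319%; 16 higher and 33 lower), for 43 of 15467 against the low dose (0.278%; 11 higher and 32 lower) and for 257 of 15206 against OCA (1.69%; 114 higher and 143 lower). With standard errors rescaled to the deposited p these counts were 357, 871 and 1741, so the number of differing genes depends on the error assumed. Compound and dose cannot be told apart in the OCA comparison.

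Against the mid dose, the largest downward differences among genes with at least 1 FPKM in the vehicle and high-dose groups included an uptake transporter and secreted proteins. Slc10a1 fell by 3.35 at the high dose and stood at 0.23 without a call at the mid dose, a difference of -3.58, 95% interval -4.36 to -2.79. Mup7 (-4.74 against 0.32) differed by -5.06, 95% interval -5.97 to -4.14 and Mup3 by -3.59, 95% interval -4.49 to -2.70. Apolipoprotein A-IV, Apoa4, carried on triglyceride-rich lipoproteins, fell from 1168 to 157 FPKM at the high dose (-2.90) and stood at 0.04 at the mid dose, and Nnmt differed by -3.19. From the low dose these genes differed by -1.81 (Slc10a1), -2.04 (Mup7), -1.97 (Mup3), -3.29 (Apoa4) and -2.73 (Nnmt), none of them called. For all but Apoa4 the low dose thus lay nearer the high dose than the mid dose did. The genes were picked for their large difference from the mid dose, which favours this outcome, so it does not describe the order of doses in general. Upward differences from the mid dose were those of the NRF2 target Cbr3, with 2.35, 95% interval 1.24 to 3.45, Gstm3, with 2.23, 95% interval 1.396 to 3.06, and the dinucleoside hydrolase Fhit (2.67 against 0.37). Of 19 NRF2 genes 3 differed upward from the mid dose, Cbr3, Gsta1 and Gstm3, against 0.319% of genes in either direction. The low dose did not lie between: the NRF2 list median was 1.08 at the high, -0.05 at the mid and 1.07 at the low dose. From the low dose 1 of 19 NRF2 genes differed upward and 2 downward, against 0.278% of all genes. The small nucleolar RNAs Gm24299 and Snora33 were also called as differing from the mid dose, although the authors' test called neither at the high dose (q = 0.721 and 0.568 in the authors' deposited table) and the SE of Gm24299, 0.0445, is much narrower than that q would allow; these 2 differences are uncertain. For Slc51b, Nr0b2 and Col1a1 the difference from the mid dose was not called, with 0.07, 95% interval -1.35 to 1.49, 0.07, 95% interval -0.66 to 0.80 and 0.33, 95% interval -0.66 to 1.31.

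Against the low dose, Ptgds was the largest upward difference, 3.93, 95% interval 2.32 to 5.54, and Gstm3 followed with 2.12, 95% interval 1.06 to 3.18. The other upward differences by the naming rule were short or pseudogene transcripts not called at the high dose, Gm13343, Mir1839 and Gm23008, whose SE are likewise too narrow for their deposited q and whose differences are uncertain. Downward, the cornified envelope gene Sprr1a fell by 2.59 at the high dose and rose by 2.09 at the low dose (difference -4.67, 95% interval -6.13 to -3.22). The trefoil factor Tff3 (0.44 against 4.59) and the imprinted RNA H19 (2.19 against 5.91) had larger log2 changes at the low dose. Mt2 and Fgl1 differed by -3.69 and -3.59. Of 18 acute phase genes 6 differed downward, Lcn2, Saa1, Saa2, Orm2, Fgl1 and Cd14, against 0.278% of all genes. Lcn2, for example, fell by 2.09 at the high dose and rose by 0.64 at the low dose (-2.73, 95% interval -3.66 to -1.80). Ccl2 fell by 1.58 at the high dose and rose by 0.88 at the low dose (-2.45, 95% interval -3.71 to -1.20).

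Against OCA, Ptgds differed by 7.94, 95% interval 6.69 to 9.19, Lpcat4 by 5.89, 95% interval 4.31 to 7.46, with an OCA change of -0.01, and Tmem141 by 4.26, 95% interval 2.59 to 5.93. Dysf, a membrane repair protein that rose from 2.34 to 23.7 FPKM at the high dose, and Gm6135 followed. Downward, the 5 largest differences among genes with at least 1 FPKM in the vehicle and high-dose groups were those of Nnmt (-5.35, 95% interval -6.72 to -3.98), Mup3, Fgl1 (-4.55, 95% interval -5.42 to -3.68), Dio1 (-4.54, 95% interval -5.66 to -3.42) and Cyp2c29 (-4.50, 95% interval -5.55 to -3.45). Within the lists, 11 of 30 matrix genes differed downward from OCA and none upward, against 1.69% of all genes in either direction. Col1a1 was at 0.02 with OCA, and the difference was -2.73, 95% interval -3.80 to -1.65. Of 19 NRF2 genes 7 differed upward and 2, Mt1 and Mt2, downward; Gstm1 differed by 2.37, 95% interval 1.12 to 3.62. Of 18 acute phase genes 5 differed downward, as did 4 of 18 PPAR alpha genes, with Pdk4 upward, and 3 of 22 cholesterol genes upward, Sqle among them (2.72, 95% interval 1.82 to 3.62). Nr0b2 (1.87, 95% interval 1.15 to 2.596), Slc51b (3.36, 95% interval 2.01 to 4.70) and Cyp8b1 (-5.59, 95% interval -6.72 to -4.46) differed as well. For Abcb11 (1.38, 95% interval -0.26 to 3.02), Serpina1e (-0.81, 95% interval -2.09 to 0.47) and Trem2 (-1.72, 95% interval -2.77 to -0.68) a difference was not called, which does not show that the effects were alike.

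**Figure D5:**
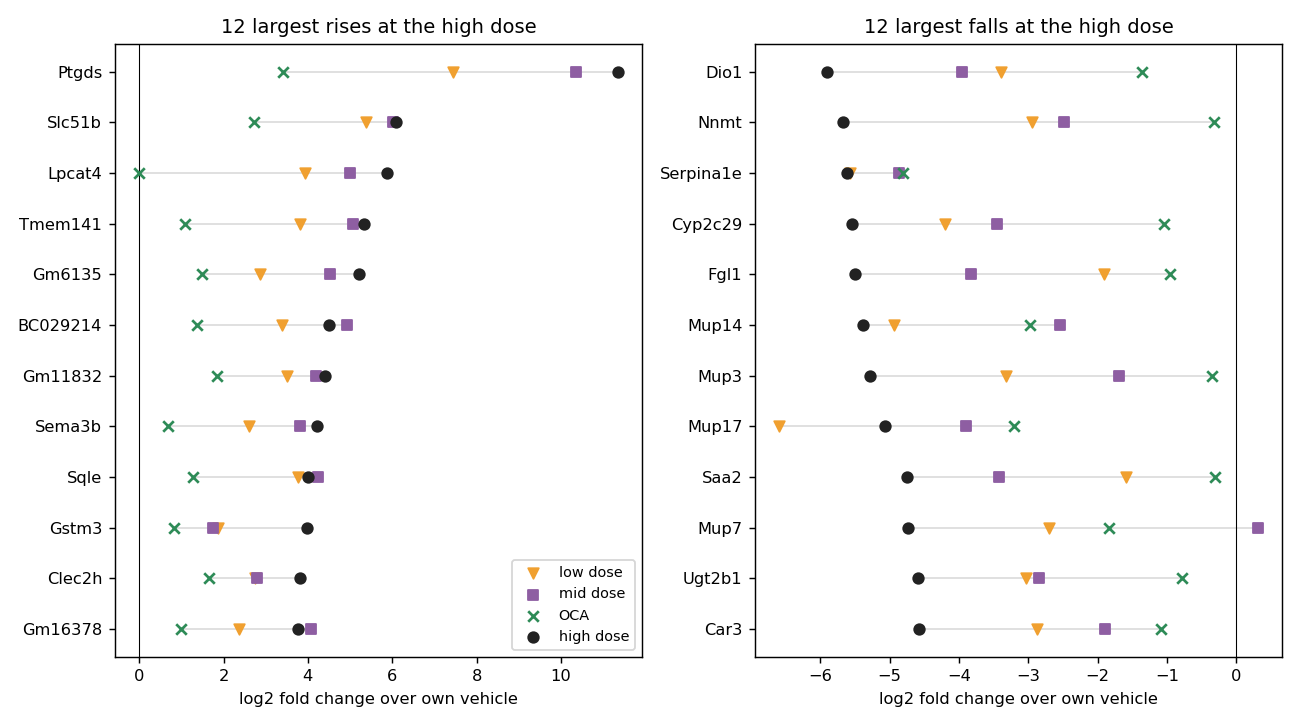
Log2 fold change over its own vehicle (x axis) of the 12 largest rises (left) and the 12 largest falls (right) at the high dose, with the low dose (triangles), mid dose (squares), OCA (crosses) and high dose (circles) on 1 row per gene. The genes were ranked by the high-dose value; BC029214, Sqle and Gm16378 reached more at the mid dose, Mup17 fell more at the low dose, and Mup7 was at 0.32 at the mid dose.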

How the data were processed

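RNA-seq libraries (Illumina TruSeq Stranded mRNA, per the labels' protocols) were made from livers of 7 groups of 4 mice; 8 libraries enter the main comparison. Per the submitters' processing notes the tools were bcl2fastq, STAR 2.5.1b, Cufflinks 2.2.1, Cuffnorm and Cuffdiff, with build GRCm38; their settings and the use of strand in counting are not given in the sources used here. The authors' deposited tables hold 1 FPKM per gene and group, a log2 fold change and a test statistic, both treated as a score, and a p-value and q-value, per the file headers. Depth is unknown, since FPKM are given per group. The group FPKM summed to 765956 in the vehicle and 915996 at the high dose. As no value per animal was given, no test across animals was rerun, and p-values measure only the spread Cuffdiff modelled between these samples.

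Fold changes were recomputed as the log2 ratio of the deposited FPKM without pseudocount (python 3.11.15, pandas 2.3.3, numpy 2.4.6). A gene was called at status OK and a deposited q under 0.05. The smallest deposited p, 5e-05, was shared by 1998 genes and gave the smallest q, 0.000396. Implied standard errors are the fold change over the test statistic. Differences of fold changes were tested with a normal approximation (scipy 1.17.1) and Benjamini-Hochberg adjustment (statsmodels 0.14.6). This step was also run on simulated fold changes with independent normal errors of the rescaled size. The mid and low doses share the vehicle of the high dose, so that run does not give the error rate in these data. The FPKM of the vehicle in the 3 tropifexor tables differ by a constant factor. GENCODE M21 matched 47305 of the 47719 gene identifiers. Genes C5 and Tf of the lists were found under the symbols Hc and Trf.

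Named were the 12 largest called rises and falls with FPKM of at least 1 in both groups, the first gene of each of the 38 lists (498 genes) with up to 4 called members of largest change, members called against a list's majority, and the 5 largest called differences each way with the same FPKM limit; others were chosen after their values were seen. The members and lists were chosen with earlier results of these data known. Alternatives were a q under 0.01, a log2 change of at least 1, an FPKM filter with new adjustment, a pseudocount of 1, centring on the median gene, the tables against lean mice, rescaled errors and, chosen after seeing the data, leaving out short and ribosomal RNA genes. Some genes that meet the naming rule are not reported here.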

Additional observations from a re-analysis of the deposited data

Results flagged for a closer look

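The genes below had a high-dose fold change that differed from that of another treatment by a test of the difference itself; each value is the high-dose log2 change minus the other, and the 5 largest each way among genes with at least 1 FPKM in the vehicle and high-dose groups are given per comparison. Against the mid dose the differences above 0 were those of Cbr3 (2.35), Fhit (2.30), Gstm3 (2.23), Gm24299 (2.21) and Snora33 (2.203). Those below 0 against the mid dose were Mup7 (-5.06), Mup3 (-3.59), Slc10a1 (-3.58), Nnmt (-3.19) and Apoa4 (-2.94). Against the low dose the differences above 0 were those of Ptgds (3.93), Gstm3 (2.12), Gm13343 (1.92), Mir1839 (1.83) and Gm23008 (1.67). Those below 0 against the low dose were Sprr1a (-4.67), Tff3 (-4.15), H19 (-3.72), Mt2 (-3.69) and Fgl1 (-3.59). Against OCA the differences above 0 were those of Ptgds (7.94), Lpcat4 (5.89), Tmem141 (4.26), Dysf (3.81) and Gm6135 (3.71). Those below 0 against OCA were Nnmt (-5.35), Mup3 (-4.93), Fgl1 (-4.55), Dio1 (-4.54) and Cyp2c29 (-4.50). The short RNAs and the pseudogene among these (Gm24299, Snora33, Mir1839, Gm23008 and Gm13343) were not called by the authors' own test at the high dose; for most of them the implied standard error is narrower than the deposited q allows, so these differences are uncertain. The mid and low doses share the vehicle animals with the high dose, whereas OCA has its own vehicle and another dose.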

How the results depend on the processing

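The 1570 risen and 2445 fallen genes became 1145 and 1818 at a deposited q under 0.01, 1467 and 2025 after a filter of 1 FPKM in either group with new adjustment, and 1557 and 2444 without short and ribosomal RNA genes. With a log2 change of at least 1 also required, 640 rose and 995 fell. Centring on the median gene, a shift of 0.05, left 39.1% of the calls higher. The calls rest on the deposited q, which centring does not alter. Fold changes of the 176 named genes with a finite value moved by at most 0.03 in the tables against lean mice. Those tables hold the same group FPKM up to a constant factor, so they could hardly move the values and are not an independent check. With a pseudocount of 1, which cannot change a sign, the values moved by up to 5.81. Counts of 9 of the 76 list directions moved by over 1.5 times, all in counts of 5 or fewer: the lymphocyte list kept 2 falls at a q under 0.01 and 1 with the filter, the endothelial list 2 of 4, and Ebp was no longer called at a q under 0.01. With standard errors rescaled to the deposited p, the called differences numbered 357 against the mid dose, 871 against the low dose and 1741 against OCA; the FPKM filter gave 49, 47 and 237. No paired analysis was possible because the deposited columns hold 1 value per group and carry no replicate number, and no replicate could be left out for the same reason. Depth limits cannot be stated from these FPKM.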
